A study of Saccharomyces cerevisiae with 6 samples.

Results

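The small-subunit processome is the large nucleolar particle that forms on the nascent ribosomal RNA transcript, and the 50 genes described here encode proteins of that particle and factors that mature the 40S ribosomal subunit after it. The genes were taken as a list of standard yeast names (UTP4 to UTP30, the factors around them, and late factors such as ENP1 and RIO1), and all 50 were found among the 7127 rows of the count table. Polyadenylated RNA was sequenced from 6 libraries of a single haploid MATa Saccharomyces cerevisiae strain of the S288c background, grown in YPD. The mCh- group holds 3 libraries of cells collected 180 min after addition of 1 µM beta-estradiol, and the mCh* group holds 3 libraries of cells collected at 0 min, from 3 independent experiments per the labels. In this strain a loxP-flanked mCherry cassette with a CLN2 3' UTR and the NatNT2 marker sits before GFP at the end of SHS1, a septin gene, and the hormone activates a Cre recombinase that removes the cassette. Every library also carries leu2::Cre-EBD78:LEU2, TetO repeats at trp1 (TRP1), LacO repeats at lys4 (hphNT1), LacR-GFP at his3 (HIS3), TetR-mCherry and an ade2 mutation. Time in culture, exposure to the hormone and the reporter allele therefore changed together between the groups, and their parts cannot be told apart. The share of cells that had lost the cassette was not analysed here.

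Ribosome synthesis begins when RNA polymerase I copies a long precursor whose 5' external spacer recruits the UTP-A complex, then UTP-B and the U3 small nucleolar ribonucleoprotein, whose RNA base-pairs with the precursor. More proteins join as the 18S sequence is copied, helicases and a GTPase remodel the particle, nucleases cut away the spacer, and a small set of factors accompanies the resulting pre-40S particle to the cytoplasm. In budding yeast the genes for these factors are known to be expressed together, and their promoters are known for 2 short sequences called PAC and RRPE.

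Gene counts per library summed to 25,987,900 to 34,032,212, and a listed gene had between 332 and 19,043 counts in a library. No annotated gene of the R64 reference overlapped any of the 50, none was split by an intron, and they lay on 14 chromosomes. SHS1 itself had 72.2 CPM (counts scaled to the library size after a composition factor) at 180 min and 68.0 CPM at 0 min, and was not called (adjusted p = 0.344, edgeR). All 6 markers of MATa cells were counted, and 4 of them were called lower, beside 28.2% of all tested genes called lower and 29.5% higher. The 4 were MFA1 (-1.55), MFA2 (-0.95), STE6 (-0.45) and STE2 (-0.30), while BAR1 and ASG7 were not called. STE6 (-0.20) and STE2 (-0.05) lost their calls with library sizes alone, where ASG7 was called higher (0.37), and STE2 also lost its call without mCh-_t180 replicate 2 or mCh*_t0 replicate 2. Of 4 markers of MATalpha cells, the alpha-factor genes MF(ALPHA)1 and MF(ALPHA)2 had means of 0.194 and 0.244 CPM at 180 min and 0.372 and 0.241 CPM at 0 min and were too low to test. STE3 had 5.67 CPM at 180 min and 5.05 CPM at 0 min, SAG1 had 16.3 CPM at both times, and neither was called. The part of these markers in the falls of the listed genes was not tested.

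All 50 genes fell at 180 min by the quasi-likelihood test of edgeR, with p adjusted by Benjamini-Hochberg over all tested genes and called below 0.05. None of the 50 rose, also at an unadjusted p below 0.05. Over all 6220 genes tested, 28.2% were called lower and 29.5% higher. The listed genes had a median log2 fold change of -0.92 (range -1.54 to -0.32), against 0.02 over all tested genes. In linear terms the fall was 47.3% at the median, 20.1% at the least and 65.6% at the most. At least 2-fold falls were called for 18 of the 50, against 4.50% of all tested genes. For each of the 50, all 3 libraries at 180 min lay below all 3 at 0 min, a pattern that 30.8% of all tested genes showed. The libraries are bulk RNA on a relative scale. Fewer transcripts in each cell, fewer cells with the transcripts and a rise of other RNA therefore cannot be told apart.

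The 50 genes together took 0.445%, 0.450% and 0.441% of all counts in the 3 libraries at 180 min, and 0.677%, 0.692% and 0.736% in the 3 libraries at 0 min. Their mean share was 0.445% at 180 min (SD 0.00449, n = 3) and 0.702% at 0 min (SD 0.0306, n = 3). The 180 min libraries lay close to each other and well below the lowest 0 min library. Measured against the 0 min mean of each gene, the median over the 50 genes was -0.97, -0.89 and -0.89 on the log2 scale in the libraries at 180 min and -0.04, 0.02 and 0.02 in those at 0 min. With library sizes alone in place of composition factors, the listed genes had a median of -0.67 and all tested genes one of 0.27. The difference between these medians was -0.94 (log2) under either scaling. A change of scaling moves all genes by nearly the same amount, so this difference could hardly change and is no check. Of the 50, 49 were called lower with library sizes alone.

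**Figure D1:**
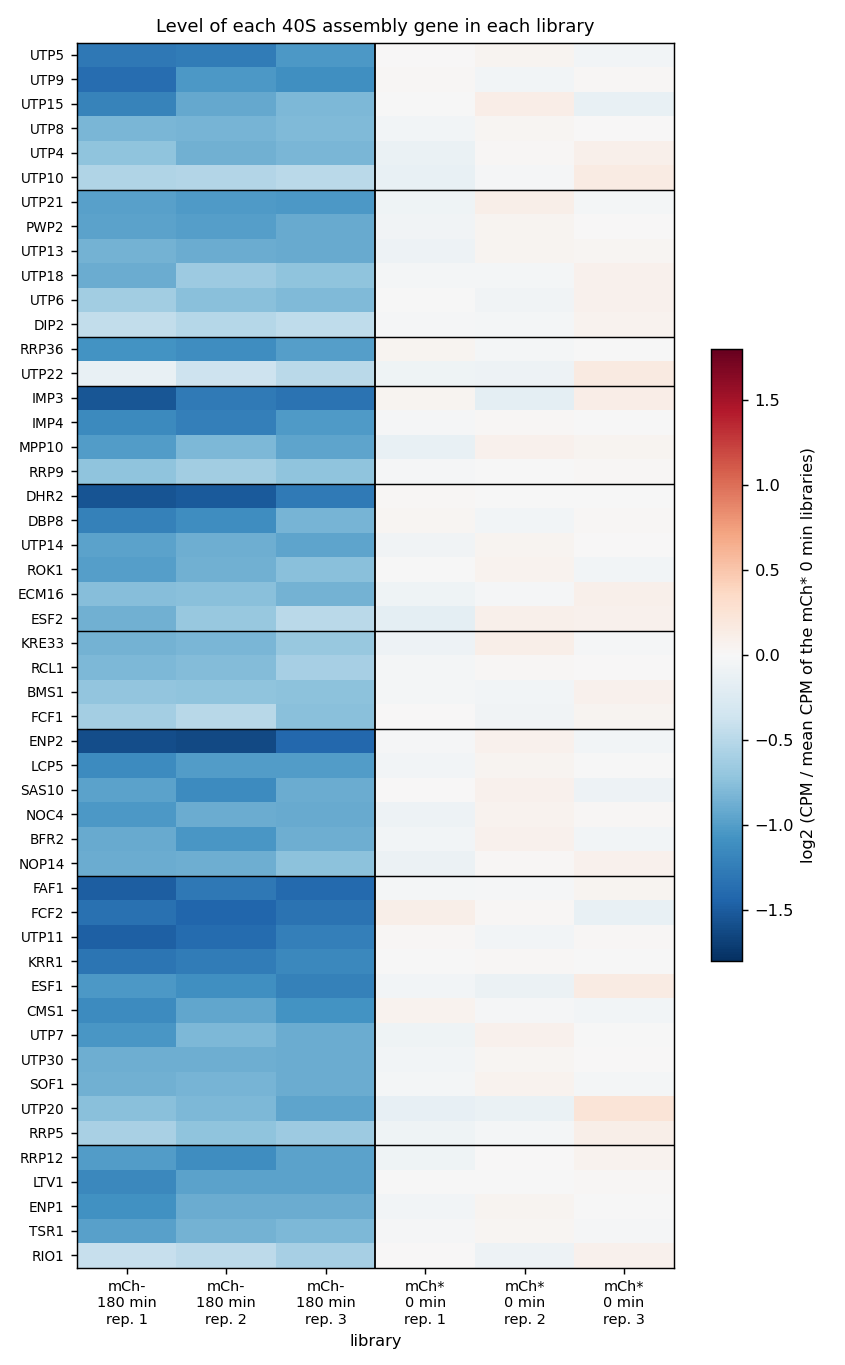
Each row is 1 of the 50 genes, grouped by role in the order used in the text, and each column is 1 library, with the 180 min libraries on the left. The colour is the log2 ratio of the gene's CPM to its mean over the mCh* 0 min libraries, and every gene is blue in the 180 min columns, with UTP22 the palest.

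The UTP-A complex binds the start of the precursor and in yeast is also linked to its transcription. All 6 listed subunits fell, with a median log2 fold change of -0.89. UTP5 (YDR398W, chromosome IV, 1267471 to 1269402 in R64) had 70.2, 71.6 and 83.6 CPM at 180 min, against 172, 178 and 165 CPM at 0 min. It had the largest fall of the complex, -1.19 ± 0.09 (SE; adjusted p = 2.79e-08 in edgeR), and its groups lay far apart. UTP10 (YJL109C, chromosome X, 212000 to 217309), a long helical-repeat protein, had 145, 147 and 152 CPM at 180 min, against 192, 208 and 235 CPM at 0 min. Its fall was the smallest of the complex, -0.52 ± 0.09 (SE; adjusted p = 9.33e-05 in edgeR), and its 95% interval (-0.70 to -0.34) did not reach that of UTP5 (-1.37 to -1.01). UTP9 (-1.17), UTP15 (-0.97), UTP8 (-0.82) and UTP4 (-0.80) lay between them.

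UTP-B is a complex of proteins built mostly of WD repeats that receives the U3 particle. All 6 subunits fell, with a median of -0.82. UTP21 (YLR409C, chromosome XII, 934414 to 937233) had 52.8, 51.5 and 50.7 CPM at 180 min, against 98.9, 112 and 102 CPM at 0 min, a log2 fold change of -1.01 ± 0.08 (SE; adjusted p = 6.41e-08 in edgeR). The 180 min libraries of UTP21 were nearly equal, and the groups lay far apart. DIP2, also called UTP12 (YLR129W, chromosome XII, 399657 to 402488), had 111, 106 and 110 CPM at 180 min, against 148, 147 and 158 CPM at 0 min. DIP2 had the smallest fall of the complex, -0.47 ± 0.07 (SE; adjusted p = 5.90e-05 in edgeR), although its libraries varied little within each time. PWP2, also called UTP1, was at -0.95, UTP13 at -0.89, UTP18 at -0.75 and UTP6 at -0.72.

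UTP-C joins later and consists in yeast of UTP22, RRP7 and the subunits of casein kinase 2, with RRP36 bound to it. RRP36 (YOR287C, chromosome XV, 850937 to 851839) had 39.8, 38.6 and 42.2 CPM at 180 min, against 86.6, 81.8 and 83.4 CPM at 0 min, and fell by 1.06 on the log2 scale (SE 0.08, adjusted p = 4.05e-08 in edgeR). The groups of RRP36 lay apart by much more than either spread. UTP22 (YGR090W, chromosome VII, 662358 to 666071) had 165, 140 and 129 CPM at 180 min, against 171, 170 and 202 CPM at 0 min. Its log2 fold change of -0.32 ± 0.10 (SE; adjusted p = 0.0118 in edgeR) was the smallest of all 50, and its highest library at 180 min lay just below its lowest at 0 min. UTP22 was not called with library sizes alone (-0.07, adjusted p = 0.586) or without mCh*_t0 replicate 3 (-0.24, adjusted p = 0.0570). It was the single listed gene whose call was lost under those settings. RRP7, which is not on the list, was at -0.41, and of the casein kinase genes CKB1 (-0.28) and CKA2 (-0.27) fell while CKB2 (-0.13, adjusted p = 0.213) and CKA1 (-0.09, adjusted p = 0.305) were not called. With library sizes alone RRP7 (-0.16), CKB1 (-0.03) and CKA2 (-0.02) lost their calls.

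RRP9 is the U3-specific protein of the U3 particle, and MPP10, IMP3 and IMP4 form the complex that holds U3 RNA on the precursor. All 4 fell, with a median of -1.02. IMP3 (YHR148W, chromosome VIII, 393534 to 394085) had 33.4, 40.1 and 38.8 CPM at 180 min, against 100.3, 86.1 and 105 CPM at 0 min, and fell by 1.38 on the log2 scale (SE 0.10, adjusted p = 2.70e-08 in edgeR). The 0 min libraries of IMP3 varied more than those of most listed genes, and still all lay above those at 180 min. RRP9 (YPR137W, chromosome XVI, 802359 to 804080) had 75.9, 81.3 and 75.7 CPM at 180 min, against 124, 125 and 127 CPM at 0 min. It fell by 0.69 (SE 0.07, adjusted p = 1.37e-06 in edgeR), and its 95% interval (-0.85 to -0.53) lay apart from that of IMP3 (-1.59 to -1.17). IMP4 (-1.13) and MPP10 (-0.92) lay between them.

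RNA helicases drive the rearrangements of the particle, and some need a partner protein. ECM16, also called Dhr1, displaces U3 from the precursor and is switched on by UTP14, and ESF2 is a cofactor of DBP8. All 6 genes of this group fell, with a median of -0.90. DHR2, a DEAH-box helicase gene (YKL078W, chromosome XI, 288845 to 291052), had 11.2, 11.6 and 13.6 CPM at 180 min, against 33.5, 32.7 and 32.7 CPM at 0 min. DHR2 fell by 1.44 (SE 0.11, adjusted p = 6.41e-08 in edgeR), the second-largest fall of the 50. ESF2 (YNR054C, chromosome XIV, 723356 to 724306) had 38.2, 43.4 and 49.8 CPM at 180 min, against 61.8, 74.0 and 73.3 CPM at 0 min, and fell by 0.67 (SE 0.10, adjusted p = 5.68e-05 in edgeR). ESF2 varied in both groups, which came closest between replicate 3 at 180 min and replicate 1 at 0 min without overlapping. DBP8 was at -1.05, UTP14 at -0.93, ROK1 at -0.87 and ECM16 at -0.78. The falls of helicase genes and cofactor genes were not compared by a test.

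The other enzymes had the narrowest range of the 9 role groups, -0.78 to -0.62 over 4 genes, with 0 of them 2-fold lower. KRE33, which encodes the cytidine acetyltransferase of 18S ribosomal RNA (YNL132W, chromosome XIV, 375321 to 378491), had 57.8, 59.0 and 65.3 CPM at 180 min, against 98.4, 112 and 103 CPM at 0 min (-0.78 ± 0.08 SE, adjusted p = 1.24e-06 in edgeR). Its groups did not overlap. FCF1, also called Utp24, is a PIN-domain nuclease that cuts the precursor (YDR339C, chromosome IV, 1149951 to 1150520). It had 107, 116 and 97.5 CPM at 180 min, against 165, 158 and 170 CPM at 0 min (-0.62 ± 0.08 SE, adjusted p = 1.12e-05 in edgeR). FCF1 varied more at 180 min than at 0 min, with no overlap. BMS1, the GTPase of the particle, was at -0.72 and its partner RCL1 also at -0.72, and the intervals of all 4 genes overlapped.

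NOP14 and NOC4 form a complex, and ENP2, BFR2, LCP5 and SAS10 are further proteins of the particle. All 6 fell, with a median of -0.97. ENP2, a WD-repeat protein gene (YGR145W, chromosome VII, 781767 to 783890), had 45.4, 44.4 and 51.4 CPM at 180 min, against 135, 145 and 132 CPM at 0 min, the largest fall of the 50 at -1.54 ± 0.08 (SE; adjusted p = 2.33e-09 in edgeR). Its 95% interval (-1.72 to -1.36) did not reach those of the other 5 genes. NOP14 (YDL148C, chromosome IV, 188154 to 190586) had 98.0, 98.1 and 109 CPM at 180 min, against 169, 183 and 191 CPM at 0 min, and fell least (-0.83 ± 0.08 SE, adjusted p = 5.36e-07 in edgeR), with no overlap between groups. LCP5 (-1.05), SAS10 (-0.99), NOC4 (-0.94) and BFR2 (-0.94) were close to each other.

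The 11 genes in the role group of other scaffold proteins all fell, with a median of -1.05, and 6 of them at least 2-fold. FAF1, whose protein binds that of KRR1 (YIL019W, chromosome IX, 315093 to 316133), had 31.1, 35.6 and 32.9 CPM at 180 min, against 84.5, 85.5 and 90.1 CPM at 0 min (-1.38 ± 0.08 SE, adjusted p = 6.23e-09 in edgeR). Its libraries were close within each group and far apart between them. FCF2 (-1.37), UTP11 (-1.36), KRR1 (-1.24), ESF1 (-1.12) and CMS1 (-1.05) were the others at least 2-fold lower. RRP5, which acts in the making of both subunits (YMR229C, chromosome XIII, 725934 to 731123), had 174, 157 and 165 CPM at 180 min, against 247, 254 and 282 CPM at 0 min, and fell least (-0.66 ± 0.08 SE, adjusted p = 6.06e-06 in edgeR). UTP7 (-0.92), UTP30 (-0.88), SOF1 (-0.87) and UTP20 (-0.83) lay between, and UTP20, which has the longest coding sequence of the 50 (7482 bases), varied most at 0 min, at 326, 332 and 426 CPM.

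The factors that stay with the pre-40S particle all fell, with a median of -0.96. RRP12, an export factor (YPL012W, chromosome XVI, 529723 to 533409), had 126, 116 and 129 CPM at 180 min, against 239, 255 and 265 CPM at 0 min (-1.03 ± 0.08 SE, adjusted p = 6.00e-08 in edgeR). The groups of RRP12 lay far apart. LTV1 (-1.02), ENP1 (-0.96) and TSR1 (-0.88), which bind the particle from the nucleus to the cytoplasm, had intervals that overlapped that of RRP12. RIO1, the kinase family ATPase of a late cytoplasmic step (YOR119C, chromosome XV, 548792 to 550246), had 72.1, 68.9 and 63.5 CPM at 180 min, against 96.1, 90.3 and 101 CPM at 0 min. RIO1 fell by 0.49 (SE 0.08, adjusted p = 9.94e-05 in edgeR), and its interval (-0.67 to -0.32) lay apart from those of the other 4.

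**Figure D2:**
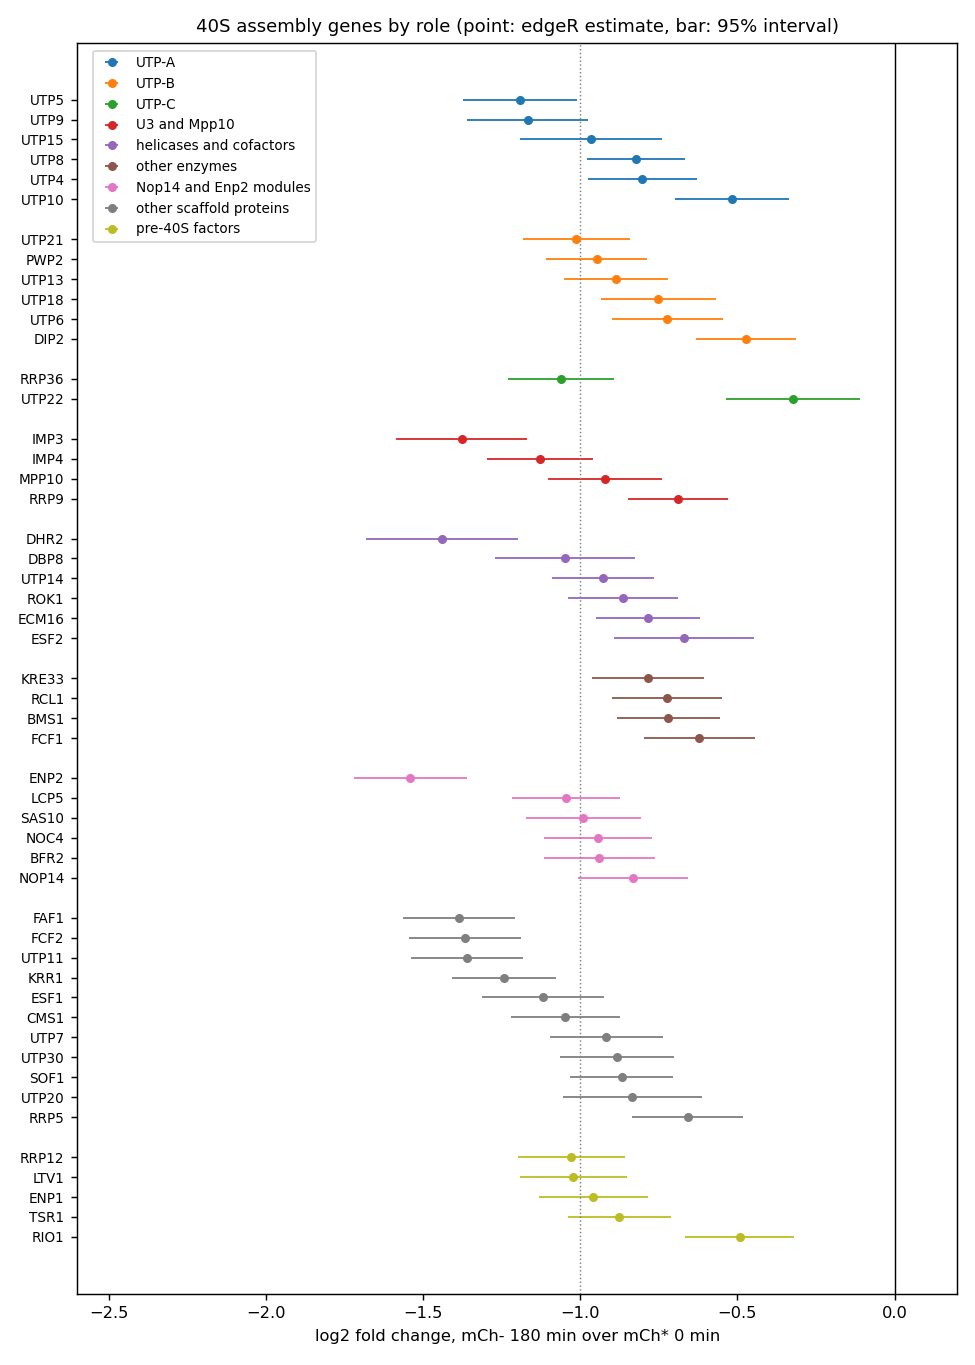
Points are the log2 fold changes (180 min over 0 min) of the 50 genes in edgeR and bars their 95% intervals, grouped by role. The dotted line marks a 2-fold fall, every bar lies below 0, and ENP2 (-1.54) and UTP22 (-0.32) mark the ends of the range.

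Levels per length were compared as CPM per kilobase of coding sequence. The median of the 50 genes was 38.9 at 180 min and 73.0 at 0 min, while over all tested protein-coding genes it was 48.5 at 180 min and 47.8 at 0 min. KRR1 (140 at 180 min and 331 at 0 min), ESF1 (152 and 331) and FCF1 (187 and 288) were the most abundant per length, and DHR2 (5.50 and 14.9) the least. Within UTP-A the highest subunit was 1.74 times the lowest at 180 min and 2.24 times at 0 min, and within UTP-B the ratio was 2.10 at 180 min and 1.52 at 0 min. The order of the 50 genes by level per length was largely shared by the times (Spearman correlation 0.90 across 50 genes, which share the libraries and are not replicates). Genes with a higher level per length at 0 min had somewhat larger falls (correlation -0.42 by Spearman and -0.30 by Pearson across the 50 genes). The 0 min level is part of both measures. Coding length, which also went with the size of the fall, is part of the level per length. Whether this relation differs from that with length was not tested.

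**Figure D3:**
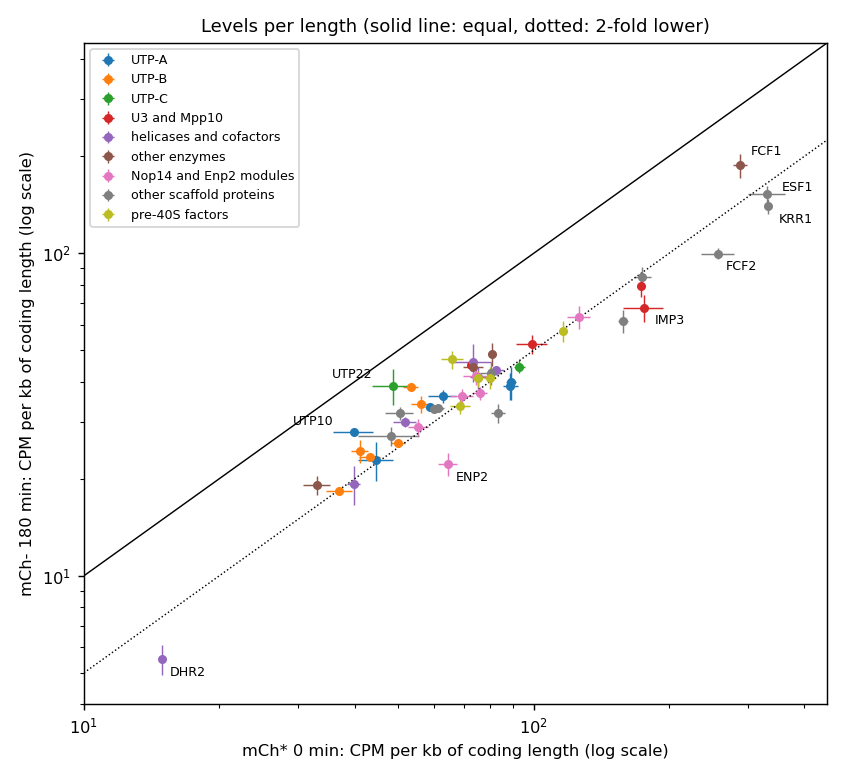
Each point is 1 gene, with its mean CPM per kilobase of coding length at 180 min (vertical) against that at 0 min (horizontal), both on log scales, and bars of 1 SD (n = 3 each). Points lie below the solid line of equal levels and scatter about the dotted line of a 2-fold fall, from DHR2 (5.50 at 180 min) to FCF1 (187 at 180 min).

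Longer genes of the list had smaller falls. The correlation of the log2 fold change with the log2 coding length was 0.41 (Pearson) and 0.39 (Spearman) across the 50 genes, and 0.16 and 0.20 across 5715 tested protein-coding genes, which share libraries and depth. The 8 listed genes over 3000 bases had a median of -0.75, beside a median of 0.27 over all 488 tested protein-coding genes of that length. The 10 listed genes of 1000 bases or less had a median of -1.09, beside -0.08 over 2251 genes. The difference between the medians of the listed genes and of all genes of the same length class was -1.02 for the longest class, -0.99 for the middle class and -1.01 for the shortest. With the length trend of each library removed, UTP22 was at -0.54 and UTP10 at -0.79, and all 50 stayed called lower. Whether length, or something that goes with it in the libraries, had a part in the smaller falls of long genes was not tested.

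**Figure D4:**
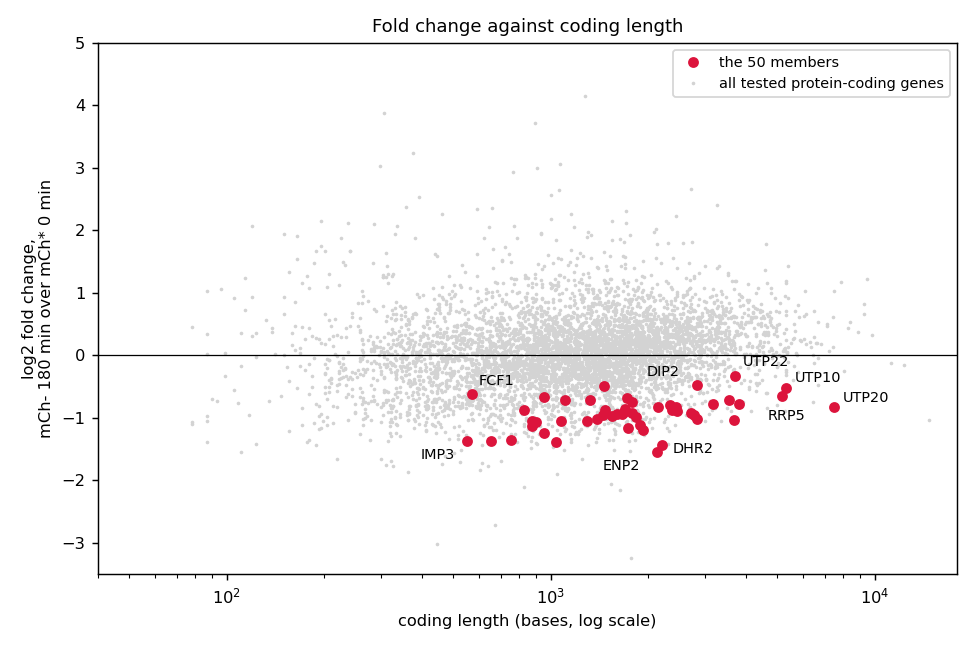
The log2 fold change (180 min over 0 min) is plotted against coding length on a log scale for the 50 genes (red) and all tested protein-coding genes (grey). The red points lie in the lower part of the grey cloud at every length, from IMP3 (-1.38, 552 bases) to UTP20 (-0.83, 7482 bases).

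PAC and RRPE were already known from promoters of such genes before this search. They were common in the promoters of the listed genes, and about as common in those of 60S assembly genes. The windows from 250 bases before to 50 bases after the start codon were read from the R64 genome, since the annotation gives no transcript starts, and each motif was searched on both strands. The PAC core GATGAG was present in 46 of 50 windows (92%), against 20.3% of 6007 protein-coding genes, and the longer form GCGATGAG in 27 of 50 (54%), against 3.93%. The RRPE core AAAAATTT was present in 41 of 50 (82%), against 14.1%, and its form preceded by TG in 23 of 50 (46%), against 3.91%. Both cores were present in 38 of 50 windows (76%), against 5.63% of all. Among 70 promoters of 60S assembly genes the PAC core was present in 90%, the RRPE core in 81.4% and both in 72.9%. The stress element AGGGG, a motif of genes that rise in stress, was present in 8 of 50 (16%), against 21.6% of all. These counts are matches of letters and do not show that a protein was bound.

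**Figure D5:**
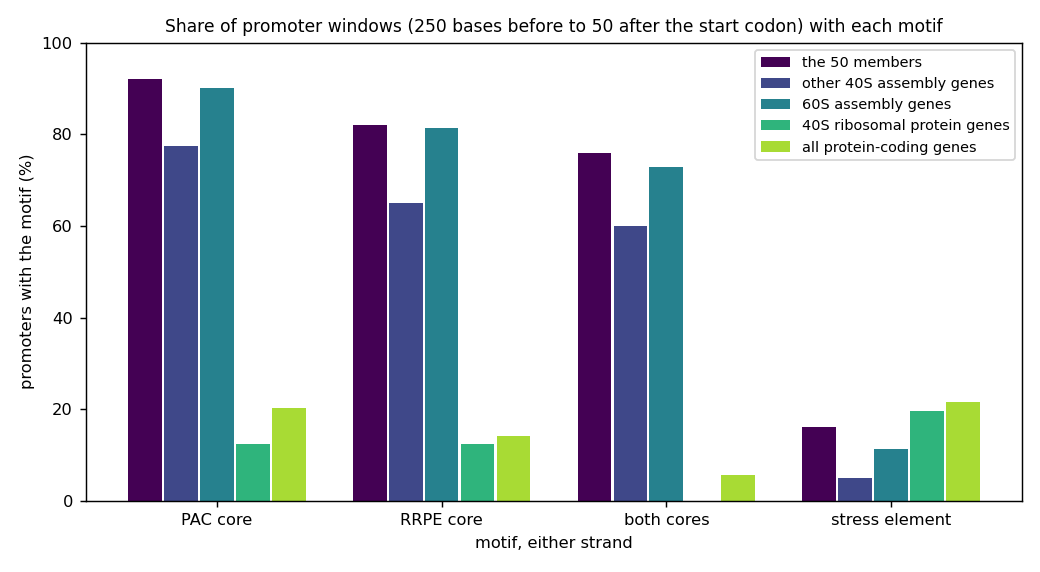
Bars give the share of promoter windows (%) that hold each motif on either strand, for the 50 listed genes, other 40S assembly genes, 60S assembly genes, 40S ribosomal protein genes and all protein-coding genes. Both cores were found together in 76% of the listed genes and in 5.63% of all genes, and in 0 of the 56 ribosomal protein genes.

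Most of the sites lay in the same stretch of the window. Of 71 PAC cores upstream of the start codon, 69 lay between 50 and 200 bases from it, with a median of 99 bases, and of 59 RRPE cores 55 lay in that range, with a median of 123 bases. In 34 of the 38 windows with both cores (89.5%) the RRPE of the closest pair lay upstream of the PAC. Among all genes this held for 64.8% of the 338 such windows. In ESF2 and UTP4, both among the 38, the only PAC core lay after the start codon. The order and spacing of the cores, and overlapping PAC cores, were looked at after the sites were seen. The windows of all genes include those of the listed genes. In 11 of the 38 windows with both cores the closest pair was at most 5 bases apart (28.9%, against 20.7%). The 30-base windows of these 11 genes are shown because they hold both motifs side by side. They run 5' to 3' on the strand of the gene, in R64 coordinates, with PAC and RRPE cores on either strand in capitals (CTCATC is PAC and AAATTTTT is RRPE on the other strand, and overlapping cores run together).
PWP2, chrIII:223355-223384, minus strand: gAAAAATTTtgcGATGAGctgaaagatgaa
UTP21, chrXII:937327-937356, minus strand: gAAAAATTTcgcGATGAGattgctaatgaa
UTP9, chrVIII:491810-491839, plus strand: gAAAAATTTaacGATGAGatggagttttca
RRP5, chrXIII:731262-731291, minus strand: gAAAAATTTtaaGATGAGATGAGctaaacc
ROK1, chrVII:182273-182302, plus strand: aAAATTTTTtgcGATGAGatgggaaggaaa
UTP20, chrII:227452-227481, plus strand: aAAATTTTTaccGATGAGcattgaaaagtt
UTP18, chrX:312764-312793, minus strand: aAAAAATTTcacCTCATCTCATCgatcact
ESF1, chrIV:1206490-1206519, minus strand: aAAAAATTTcatCTCATCTCATCtcaaatt
DBP8, chrVIII:442032-442061, plus strand: AAAAATTTTTacCTCATCgcggattgtaaa
FAF1, chrIX:314988-315017, plus strand: tccgttcctagAAAAATTTtgagcGATGAG
LTV1, chrXI:176646-176675, plus strand: atttgtcaaatAAAAATTTtaagcGATGAG

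In 8 of the 11 the cores were separated by 3 bases, in DBP8 by 2, and in FAF1 and LTV1 by 5. The genes of these windows came from 5 of the 9 role groups, and their log2 fold changes ran from -1.38 (FAF1) to -0.66 (RRP5), short of both ends of the list.

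A further 4 windows are shown for other arrangements. These are overlapping PAC cores (ENP2 and DHR2), a PAC core whose RRPE core lies outside the 30 bases shown (IMP3), and RRPE alone (FCF1). ENP2 and DHR2, with the largest falls, had 3 PAC cores in a row, each overlapping the next by 1 base, and no RRPE core. NOC4 (-0.94) had the same run of 3 PAC cores, with an RRPE core as well. RIO1, with a small fall (-0.49), also had overlapping PAC cores. Overlapping PAC cores were present in 15 of the 50 windows (30%), against 24.3% of 60S assembly genes, 12.5% of other 40S assembly genes and 1.25% of all genes. FCF1 had RRPE cores and no PAC core. IMP3 had a PAC core 12 bases from an RRPE core, which is not in the bases shown. UTP22, with the smallest fall, was the 1 gene of the 50 with neither core in its window.
ENP2, chrVII:781671-781700, plus strand: agctaagCTCATCTCATCTCATCggctgta
DHR2, chrXI:288762-288791, plus strand: tctgctcGATGAGATGAGATGAGgttatga
IMP3, chrVIII:393440-393469, plus strand: cactgatataagCTCATCgcaacaaaaatt
FCF1, chrIV:1150616-1150645, minus strand: atgaacggctaAAATTTTTcagcttgctac

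Listed genes with different cores had close medians. The median log2 fold change was -0.94 for the 38 genes with both cores, -0.92 for the 8 with PAC alone (MPP10, RRP9, UTP13, RRP36, ECM16, UTP7, ENP2 and DHR2) and -0.88 for the 3 with RRPE alone (UTP15, FCF1 and UTP30). RIO1 (-0.49), DIP2 (-0.47) and UTP10 (-0.52), with small falls, each had both cores.

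For 23 of the 50 genes the nearest annotated gene upstream pointed the other way, so that the space between them lies before both. Of these neighbours 21 were tested, of which 10 fell, 5 rose and 6 did not pass the test (median -0.14). That is 47.6% lower, beside 28.2% lower and 29.5% higher over all tested genes. Some of these neighbours were ribosomal protein or assembly genes themselves, and of the 17 tested outside those lists 6 fell (35.3%), 5 rose and 6 were not called (median -0.0009). LCP5 shared 301 bases with NSA2, a 60S assembly gene that fell by 1.39, LTV1 shared 299 bases with RPC25 and SAS10 shared 324 bases with RPC53, both RNA polymerase III subunit genes, which were called lower (RPC53 at -0.90). Other partners moved the other way. IMP3 lay 250 bases from MRPL6, a mitochondrial ribosomal protein gene that rose by 0.23, NOP14 lay 337 bases from RPN5, a proteasome gene that rose by 0.22, and UTP15 lay 535 bases from AIP1, an actin cofactor gene that rose by 0.53. GCY1, 867 bases from RIO1, had the largest rise of these neighbours (1.09), and YPL216W, 649 bases from BMS1, rose by 0.45. Of the 22 tested neighbours that pointed the same way, 11 fell and 4 rose, beside 28.2% lower and 29.5% higher over all tested genes. Neighbours were named after their values were seen.

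Among 40 further genes of 40S assembly, 36 fell, 0 rose and 4 were not called, with a median of -0.88. NSR1, a nucleolin-like gene, had the largest fall (-1.66), with a mean of 229 CPM at 180 min (SD 29.9, n = 3) and 726 CPM at 0 min (SD 55.5, n = 3), followed by UTP23 (-1.36) and TSR2 (-1.27), which escorts a 40S ribosomal protein. The genes not called were CKA1 and CKB2, HRR25 (-0.12), a casein kinase 1 with other roles in the cell, and SQS1 (0.13, adjusted p = 0.231 in edgeR), an activator of the helicase Prp43. With library sizes alone SQS1 was called higher (0.39, adjusted p = 0.00283) and SGD1 (-0.12) was not called. Their promoters held the PAC core in 77.5% and the RRPE core in 65% of windows.

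Of 70 genes of 60S assembly, 69 fell and none rose. Their median was -1.03, and 38 were at least 2-fold lower. CGR1 (-1.86), ECM1 (-1.76) and LOC1 (-1.72) fell further than any of the 50 listed genes, and URB2 (-0.18, adjusted p = 0.149 in edgeR) was not called, but was called lower with the length trend removed (-0.39) and without mCh*_t0 replicate 1 (-0.28). SPB4, a helicase gene (-0.20, adjusted p = 0.0307 in edgeR), was the weakest call. It was lost with library sizes alone (0.05), in the fit with the replicate number as a block (adjusted p = 0.0568) and without any 1 of 3 libraries (mCh-_t180 replicate 1, mCh*_t0 replicate 2 or mCh*_t0 replicate 3, adjusted p of 0.0683 to 0.102). All 56 genes of 40S ribosomal proteins fell, with a median of -0.84 and 13 at least 2-fold lower, while their windows held the PAC core in 12.5% and the RRPE core in 12.5%, against 20.3% and 14.1% of all genes. With library sizes alone RPS8A (-0.28) lost its call. Whether these groups differed in the size of their falls was not tested.

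Genes of regulators moved in both directions. TOD6, whose protein binds PAC and represses, had a mean of 35.2 CPM at 180 min (SD 4.84, n = 3) and 83.7 CPM at 0 min (SD 7.56, n = 3), and fell by 1.25 (adjusted p = 1.31e-07 in edgeR). Its paralog DOT6 rose by 0.31, with a mean of 188 CPM at 180 min (SD 3.38, n = 3) and 152 CPM at 0 min (SD 5.29, n = 3). STB3, whose protein binds RRPE, rose by 0.37, and SFP1, an activator of these genes, rose by 0.39. TOR1, a kinase of the growth-control complex TORC1, rose by 0.61, and SCH9, the kinase gene downstream of it, fell by 0.80. Tested protein-coding genes over 3000 bases, TOR1 among them, had a median of 0.27. IFH1 (-0.40) and FHL1 (-0.31), regulators of ribosomal protein genes, fell, and neither was called with library sizes alone (-0.14 and -0.06). These are transcript levels and do not show the activity of the proteins.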

How the data were processed

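RNA was DNase-treated and made into stranded polyA-selected libraries, per the labels' protocols. The deposited values are raw counts per gene and library, which the authors did not normalize. HTSeq 0.6.1p1, STAR 2.5.3a, cutadapt 1.10 and bcl2fastq 2.20.0.422 are named, with builds R64 and sacCer3, per the submitters' processing notes. How strand and multiply mapping reads were handled in counting is not given in the sources used here, so counts of overlapping or near-identical genes are uncertain. Samples were grouped, and numbered, by their titles. Names and positions came from RefSeq R64, where 6088 of the 7127 identifiers matched. The 1039 others, with 0.469% of counts, kept their identifiers and have no position here, so overlaps with them could not be checked. All genes were tested together with edgeR 4.0.16 (R 4.3.3), with TMM factors, its default low-count filter (6220 genes kept, all 50 members among them), and its two-sided quasi-likelihood F test for the change at 180 min over 0 min, adjusted by Benjamini-Hochberg across these genes. CPM use the TMM-scaled library size. The p-values rest on how the 3 libraries of a group varied, with the spread of each gene moderated by that of all tested genes. Alternatives used other scalings and filters, DESeq2 1.42.0, limma-voom (limma 3.58.1), a block for the replicate number, leaving out each library, a length trend removed by loess, and a stricter threshold. Per-library values are given for the member of each of the 9 role groups with the largest and with the smallest change, and of the other 40S and 60S genes the 3 with the largest falls and all not called are named. UTP20, the subunit genes of casein kinase 2, RRP7, SGD1, RPS8A and SPB4 were named beyond that after their values were seen. The members, lists and tests were chosen with earlier results of these data known. The test was checked on counts drawn from the real means, with few genes changed and the same dispersion for all. That check does not show how the test behaves where many genes change, as here. Drawing used matplotlib 3.10.9.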

Additional observations from a re-analysis of the deposited data

How the results depend on the processing

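The counts of genes called (3587), of listed genes called lower (50) and higher (0), and of other 40S (36) and 60S (69) assembly genes called lower stayed within 1.5 times under every alternative run. The median of the listed genes was -0.67 with library sizes alone, -0.98 with the length trend removed, and between -0.96 and -0.92 with RLE factors, TMM without ribosomal and assembly genes, other filters, DESeq2, limma-voom or the replicate block. Leaving out 1 library gave 49 or 50 listed genes called lower and medians between -0.96 and -0.89. Single listed genes kept direction throughout, and UTP22 lost its call with library sizes alone, without mCh*_t0 replicate 3 and at an adjusted p below 0.01. With library sizes alone the falls of 12 listed genes were over 1.5 times smaller, among them DIP2 (-0.22), RIO1 (-0.24), UTP10 (-0.26), FCF1 (-0.37), RRP5 (-0.41), ESF2 (-0.42) and RRP9 (-0.44), and of the 12 only UTP22 lost its call. Deviations of same-numbered libraries from their group means had correlations of -0.02, -0.03 and -0.17, beside -0.061 to 0.095 for differently numbered libraries. With means of only 3 libraries, these correlations cannot show whether the numbers pair the libraries. With the replicate number as a block the median was -0.92, 50 listed genes were called lower and no listed call changed. Depth was not the limit for the listed genes, at 332 counts or more in each library.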

Other observations

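U3, the small nucleolar RNA around which the processome forms, is encoded by a pair of genes with near-identical products, so the division of its reads between them is uncertain, and the mature RNA has no polyA tail for the selection used here. The row snR17a had 876, 731 and 974 counts at 180 min and 411, 557 and 456 counts at 0 min, with a log2 fold change of 0.60 (adjusted p = 0.000239 in edgeR). The row snR17b had 179, 273 and 253 counts at 180 min and 279, 322 and 445 counts at 0 min, with a log2 fold change of -0.81 (adjusted p = 0.00662). The 2 rows thus moved in opposite directions, and the 180 min libraries lay all above the 0 min libraries for snR17a and all below them for snR17b in CPM. With library sizes alone snR17b was at -0.55 and not called (adjusted p = 0.0516), and its value without 1 library ran from -1.05 to -0.59.

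The spacers that the processome removes from the ribosomal RNA precursor were scarcely counted. The 5' external spacer row ETS1-2 had 17, 13 and 34 counts at 180 min and 13, 20 and 7 counts at 0 min, and was not called (adjusted p = 0.606 in edgeR). The first internal spacer row ITS1-2 had 0 counts in 5 libraries and 14 in mCh*_t0 replicate 3. Because this RNA comes from repeated copies and lacks the tails used for selection, these counts do not measure the precursor.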
